A study of Mus musculus with 6 samples.

Results

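The vascular endothelial growth factor (VEGF) family was followed between genetically marked and unmarked non-cardiomyocytes of the mouse heart. It comprised 9 genes, taken as the entries of the deposited count table whose symbol was Vegfa, Vegfb, Vegfc, Pgf, Flt1, Kdr, Flt4, Nrp1 or Nrp2, and all 9 were found among 24062 symbols. All mice carried Tw2-CreERT2 and R26-tdTO. In this genotype tamoxifen activates a Cre recombinase made under the Twist2 driver, which permanently switches on the red fluorescent protein tdTomato in cells that use the driver and in their descendants. Tamoxifen dosing started at 8 weeks of age, and the heart was dissociated 10 days after dosing began, in mice recorded as 9 weeks old. Both groups therefore share the alleles and the drug. They differ in tdTomato fluorescence, by which the non-cardiomyocyte fraction was sorted after staining with the dye Mitoview633. The tdTomato-positive cells (Tw2+) and the tdTomato-negative cells (Tw2-) gave 3 bulk RNA-seq libraries each. The Tw2- population is every sorted cell without the marker, so it is a mixture. The labels do not state how many hearts make up a library. In each group, 2 libraries carry a replicate number (2 or 3), and the library without one is called unnumbered.

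VEGF ligands are secreted dimers that bind receptor tyrosine kinases, chiefly on endothelial cells. VEGF-A, from Vegfa, binds the receptors VEGFR1 (Flt1) and VEGFR2 (Kdr), and VEGFR2 carries most of its signal for endothelial growth, migration and permeability. Placental growth factor (Pgf) and VEGF-B (Vegfb) bind VEGFR1, which also exists as a soluble decoy. VEGF-C (Vegfc) acts through VEGFR3 (Flt4) and is the main growth factor of lymphatic vessels. The neuropilins Nrp1 and Nrp2 are co-receptors without kinase activity that also bind class 3 semaphorins. In the adult heart the kinase receptors are known as genes of endothelial and endocardial cells, whereas ligands are made by several cell types, including fibroblasts, cardiomyocytes and perivascular cells.

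Library totals ran from 11746696 to 16447098 counts. Levels are given in CPM, counts relative to the TMM-adjusted library total. Twist2 itself, on whose driver the sort rests, had a Tw2+ mean of 6.93 ± 0.421 CPM and a Tw2- mean of 3.50 ± 1.48 CPM (SD, n = 3), with an adjusted p of 0.0738 in edgeR. The labels call the cells non-cardiomyocytes, yet cardiomyocyte transcripts were present in every library. The 10 cardiomyocyte markers summed to between 139 and 450 CPM in Tw2+ and to between 745 and 1392 CPM in Tw2-. For endothelial markers 2 libraries stood apart from their groups. The mean of the 14 vascular endothelial markers was 4.94 log2 CPM in Tw2+ 3, against 3.20 and 2.74 in the other Tw2+ libraries. It was 4.53 in the unnumbered Tw2- library, against 6.46 and 6.41 in the other Tw2- libraries. These 2 libraries thus lay in reverse order to their groups, and results on the receptors are given with and without them.

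The promoters of the members on which the results turn are shown here, because Vegfa and Vegfc were higher and the kinase receptors Kdr, Flt4 and Flt1 were fitted lower in Tw2+. Each sequence is the RefSeq window of GRCm38.p6 from 250 bases before to 50 bases after the RefSeq start, on the coding strand. The gene spans given below are from GENCODE and can start elsewhere. The Flt4 window lies wholly inside its gene span, and the Vegfc window ends before its gene span begins. The windows are chr17:46032328-46032627 (minus strand) for Vegfa, chr8:54077282-54077581 (plus strand) for Vegfc, chr5:75978406-75978705 (minus strand) for Kdr, chr5:147725962-147726261 (minus strand) for Flt1 and chr11:49609429-49609728 (plus strand) for Flt4. Capitals mark matches, on either strand, to GGGCGG (the GC box bound by Sp1) or CCGGAA (an ETS core), and no printed matches overlap.
Vegfa: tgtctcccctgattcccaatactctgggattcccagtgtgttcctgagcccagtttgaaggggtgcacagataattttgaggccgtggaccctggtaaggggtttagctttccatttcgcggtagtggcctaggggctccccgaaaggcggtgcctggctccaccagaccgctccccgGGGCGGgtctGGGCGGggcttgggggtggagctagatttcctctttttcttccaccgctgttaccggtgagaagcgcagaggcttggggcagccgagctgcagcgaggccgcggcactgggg
Vegfc: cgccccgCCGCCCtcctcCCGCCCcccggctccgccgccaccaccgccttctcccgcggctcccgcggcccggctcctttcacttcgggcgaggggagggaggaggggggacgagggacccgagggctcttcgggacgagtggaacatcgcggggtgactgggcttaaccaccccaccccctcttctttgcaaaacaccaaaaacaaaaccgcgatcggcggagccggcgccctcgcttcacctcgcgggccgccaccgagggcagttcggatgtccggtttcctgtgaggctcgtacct
Kdr: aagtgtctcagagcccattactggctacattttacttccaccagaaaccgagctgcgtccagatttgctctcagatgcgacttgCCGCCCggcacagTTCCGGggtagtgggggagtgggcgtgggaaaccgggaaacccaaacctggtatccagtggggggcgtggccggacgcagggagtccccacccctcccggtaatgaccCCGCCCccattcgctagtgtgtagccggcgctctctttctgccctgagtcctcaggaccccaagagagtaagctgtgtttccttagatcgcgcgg
Flt1: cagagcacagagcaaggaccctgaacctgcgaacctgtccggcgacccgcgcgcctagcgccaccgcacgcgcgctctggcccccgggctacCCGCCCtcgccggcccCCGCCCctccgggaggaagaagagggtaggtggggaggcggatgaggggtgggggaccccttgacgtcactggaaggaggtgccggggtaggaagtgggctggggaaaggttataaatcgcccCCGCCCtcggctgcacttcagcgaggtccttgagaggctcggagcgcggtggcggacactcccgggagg
Flt4: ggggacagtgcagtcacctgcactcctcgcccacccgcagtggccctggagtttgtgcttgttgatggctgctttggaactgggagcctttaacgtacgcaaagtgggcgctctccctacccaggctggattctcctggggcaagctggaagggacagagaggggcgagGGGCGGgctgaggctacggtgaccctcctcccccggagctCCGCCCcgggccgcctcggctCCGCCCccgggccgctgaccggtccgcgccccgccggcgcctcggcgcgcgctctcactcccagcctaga

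A GC box was found in 1 or more windows of every member, with 2 in the Vegfa, Vegfc and Kdr windows and 3 each in those of Flt1 and Flt4. It is a common sequence, held by 35.7% of all 32851 promoter windows of this length in the table. The ETS core was present in the Kdr window alone among all 11 windows of the 9 members, 153 bases before the start, and 14.9% of all windows hold it. ACGTG, the core bound by hypoxia-inducible factors, is held by 19.6% of all windows. Among the members it was found only in a second Vegfa window, chr17:46025114-46025413, and not in the printed one. The AP-1 sequence TGANTCA was in none of the members' windows and in 7.81% of all windows. GC content ran from 60.7% in the Kdr window to 70.7% in the Flt1 window among those printed. These matches are letters in a short window and are not evidence of binding.

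All 9 members passed the filter on low counts and entered the edgeR quasi-likelihood fit of 13180 genes. A gene was called at a Benjamini-Hochberg adjusted p under 0.05 over all genes, and log2 fold changes are Tw2+ over Tw2-. Vegfa and Vegfc were called higher in Tw2+, Kdr, Flt4 and Nrp2 were called lower, and Vegfb, Pgf, Flt1 and Nrp1 did not pass. Among all tested genes 7.41% were called higher and 10.8% lower, so 2 and 3 of 9 members stand against these background shares, with no test of the difference. In bulk libraries fewer cells of a type and less RNA per cell cannot be told apart, which applies to every member below. Groups did not overlap in CPM for 5 members (Vegfa, Vegfb, Vegfc, Nrp1 and Nrp2), and for 37.4% of all tested genes. At an unadjusted p under 0.05 there were 8 members, all but Vegfb, and 4842 genes in all.

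**Figure D1:**
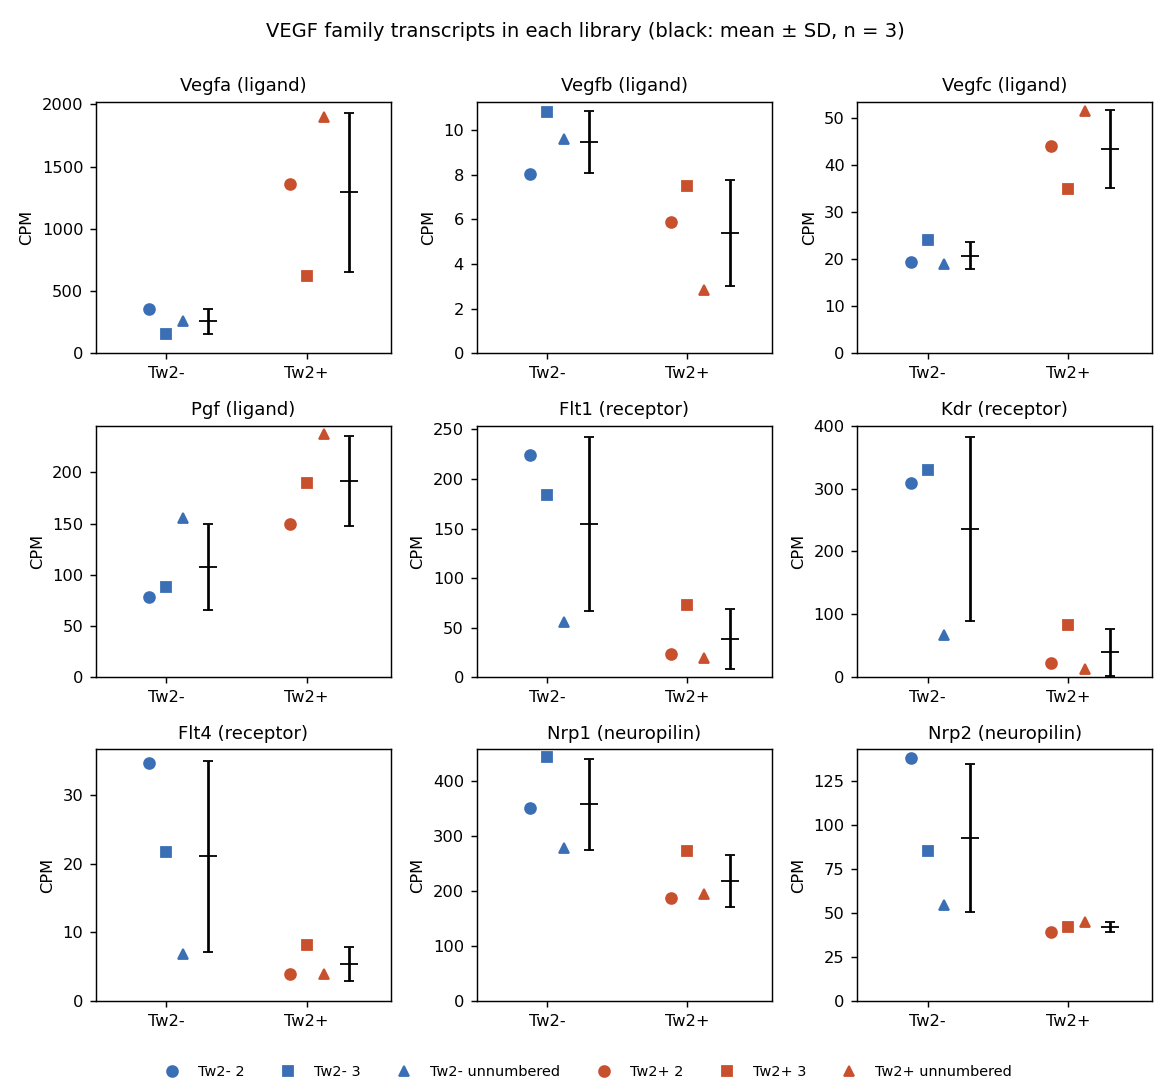
CPM (vertical axes, from 0, a different scale for each gene) of the 9 members in the 3 Tw2- (blue) and 3 Tw2+ (orange) libraries, with symbols for the library and black bars for the mean ± SD (n = 3). All Vegfa and Vegfc values of Tw2+ lie above those of Tw2-, while for Flt1, Kdr and Flt4 the unnumbered Tw2- library lies below Tw2+ 3.

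Vegfa showed the largest difference among the ligands. It encodes the main angiogenic ligand of the family, and its gene spans chr17:46016993-46032369 (GRCm38, minus strand). Its level was 1360 CPM in Tw2+ 2, 620 CPM in Tw2+ 3 and 1896 CPM in the unnumbered Tw2+ library. In Tw2- it was 355 CPM in library 2, 156 CPM in library 3 and 257 CPM in the unnumbered library. Every Tw2+ library was thus above every Tw2- library, Tw2+ 3 being the nearest to the Tw2- values. The means were 1292 ± 641 and 256 ± 99.6 CPM (SD, n = 3), a 5.05-fold rise (log2 2.34, SE 0.45, edgeR adjusted p = 0.00947). Leaving out any 1 library kept the Vegfa call, at log2 fold changes from 1.96 to 2.67, with the highest adjusted p of 0.0445 without Tw2- 3.

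Vegfc, the ligand of VEGFR3, rose less, and from a lower level per length. Its level was 44.1, 35.0 and 51.6 CPM in Tw2+ libraries 2, 3 and unnumbered, and 19.4, 24.0 and 18.9 CPM in the Tw2- libraries in the same order. The lowest Tw2+ value again came from Tw2+ 3 and lay above all Tw2- values. The means were 43.5 ± 8.32 and 20.8 ± 2.82 CPM, a 2.09-fold rise (log2 1.07, SE 0.22, edgeR adjusted p = 0.0136). The call did not hold without Tw2- 2 (adjusted p = 0.0531) or without Tw2+ 2 (0.0566), while the log2 fold change stayed between 0.93 and 1.20 in the 6 fits. Scaled to the fibroblast markers it was 0.40 and did not pass (adjusted p = 0.285). The gene spans chr8:54077606-54187096 on the plus strand.

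Pgf and Vegfb, the ligands whose only kinase receptor among the 3 is VEGFR1, did not pass and were fitted in opposite directions. Pgf (chr12:85166635-85177790, minus strand) had 149, 190 and 237 CPM in Tw2+ libraries 2, 3 and unnumbered against 78.8, 88.6 and 155 CPM in Tw2-. The unnumbered Tw2- library overlapped the Tw2+ range, and the log2 fold change was 0.84 (SE 0.29, edgeR adjusted p = 0.0777), or 1.15 without that library (adjusted p = 0.0290). DESeq2 placed Pgf past the threshold on all 6 libraries (log2 0.84, adjusted p = 0.0451). Vegfb (chr19:6982473-6987651, minus strand), the least abundant ligand per length, stood at 5.88, 7.48 and 2.82 CPM in Tw2+ and 8.02, 10.8 and 9.58 CPM in Tw2-. The groups did not overlap, from 28 to 92 counts per Tw2+ library and 122 to 201 per Tw2- library. The log2 fold change was -0.80 (SE 0.36, edgeR adjusted p = 0.141), and Vegfb passed without Tw2+ 3 (log2 -1.11, adjusted p = 0.0362).

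Kdr, the principal signalling receptor for VEGF-A, had the largest difference among the receptors. The gene spans chr5:75932827-75978458 (minus strand). It had 22.0 CPM in Tw2+ 2, 82.5 CPM in Tw2+ 3 and 13.8 CPM in the unnumbered Tw2+ library. The Tw2- values were 309, 330 and 67.6 CPM in libraries 2, 3 and unnumbered. The groups overlapped, since Tw2+ 3 lay above the unnumbered Tw2- library. Means were 39.4 ± 37.5 and 235 ± 146 CPM, a 5.96-fold fall (log2 -2.58, SE 0.75, edgeR adjusted p = 0.0446). Among the 6 fits that leave out 1 library the call held only without Tw2+ 3 (log2 -3.71, adjusted p = 0.00288) or without the unnumbered Tw2- library (-3.04, adjusted p = 0.0278). When Tw2- 2, Tw2- 3, Tw2+ 2 or the unnumbered Tw2+ library was omitted, the adjusted p was 0.116, 0.149, 0.144 and 0.111. It was also lost with RLE, upper-quartile or library-size scaling (0.0545 to 0.0552) and with at least 50 counts required in 3 libraries (0.0547).

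Flt1, which encodes the VEGF-A, VEGF-B and PlGF receptor VEGFR1, lay just outside the threshold. It spans chr5:147561604-147726011 (minus strand). Its levels were 23.6, 73.2 and 19.4 CPM in Tw2+ libraries 2, 3 and unnumbered and 224, 183 and 55.6 CPM in Tw2-. The pattern over libraries was that of Kdr, with Tw2+ 3 above the unnumbered Tw2- library. The fitted log2 difference was -1.99 (SE 0.61, edgeR adjusted p = 0.0512). It passed without Tw2+ 3 (-2.84, adjusted p = 0.00374), without the unnumbered Tw2- library (-2.43, adjusted p = 0.0286) and in DESeq2 on all libraries (adjusted p = 0.00452). Counts per gene do not separate the membrane receptor from its soluble form.

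Flt4, the receptor of VEGF-C and a marker of lymphatic endothelium, was the scarcest receptor per length. It spans chr11:49609263-49652739 (plus strand). It had 3.89, 8.21 and 4.03 CPM in Tw2+ libraries 2, 3 and unnumbered and 34.7, 21.7 and 6.83 CPM in Tw2-. The highest Tw2+ value, again in Tw2+ 3, exceeded the lowest Tw2- value. The log2 fold change was -1.97 (SE 0.56, edgeR adjusted p = 0.0418). The call held without Tw2+ 3 (adjusted p = 0.0124) or the unnumbered Tw2- library (0.00944). It was lost without Tw2- 2 (0.130), Tw2- 3 (0.122), Tw2+ 2 (0.142) or the unnumbered Tw2+ library (0.123), in limma-voom (0.0825) and with RLE factors (0.0517).

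Tw2+ 3 and the unnumbered Tw2- library were picked out for their endothelial marker levels, which the receptors follow, so larger receptor differences without them are fixed by that choice and support nothing. With both omitted, a choice made after the data were seen, the log2 fold change was -4.17 for Kdr, -2.85 for Flt4 and -3.26 for Flt1. With Tw2+ 3 alone left out, 6 members were called lower and 2 higher, while the shares over all genes rose to 21.4% lower and 20.7% higher. With any one of Tw2- 2, Tw2- 3, Tw2+ 2 or the unnumbered Tw2+ library left out, no call of a lower member was kept, and 6.10% to 6.53% of all genes were called lower.

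The neuropilins were fitted with smaller differences than the kinase receptors. Nrp2 (chr1:62703285-62818695, plus strand), the co-receptor associated with VEGF-C and lymphatic vessels, had 39.1, 42.2 and 44.7 CPM in Tw2+ libraries 2, 3 and unnumbered and 138, 85.3 and 54.5 CPM in Tw2-. The Tw2+ values lay within a narrow range below all Tw2- values, which spread widely. The log2 fold change was -1.14 (SE 0.31, edgeR adjusted p = 0.0371). The call was lost without Tw2- 2 (adjusted p = 0.0866), Tw2- 3 (0.0938), Tw2+ 2 (0.130) or the unnumbered Tw2+ library (0.0860), and in limma-voom (0.0539). Nrp1 (chr8:128358604-128503363, plus strand), the co-receptor of VEGF-A on endothelium, which is also made by other cell types, had 188, 272 and 195 CPM in Tw2+ and 351, 443 and 277 CPM in Tw2-. The highest Tw2+ value, in Tw2+ 3, stood just under the lowest Tw2- value, in the unnumbered library. Its log2 fold change of -0.71 (SE 0.25) did not pass (edgeR adjusted p = 0.0735), and it passed without Tw2+ 3 (-0.90, adjusted p = 0.0157) and in DESeq2 (-0.71, adjusted p = 0.0423).

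**Figure D2:**
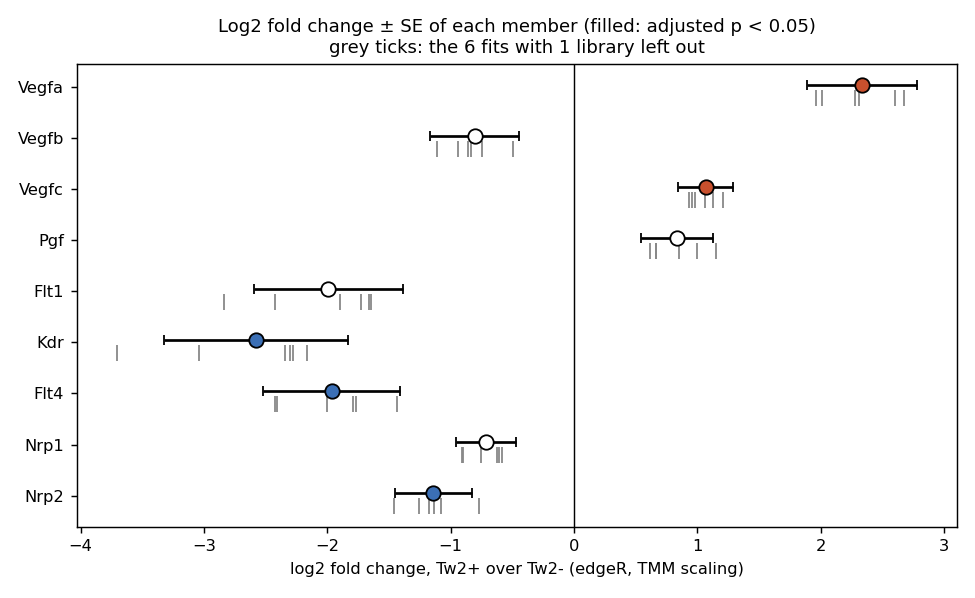
Log2 fold change (horizontal axis, Tw2+ over Tw2-, edgeR with TMM scaling) of each member with its standard error, filled orange (higher) or blue (lower) where the adjusted p was under 0.05, and open otherwise. Grey ticks are the 6 fits with 1 library left out, which range from -3.71 to -2.16 for Kdr and from 1.96 to 2.67 for Vegfa, and no member changes sign.

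Apart from Tek, the vascular endothelial markers moved with the receptors. All 14 vascular endothelial markers, a list without VEGF family genes, were tested and fitted below 0 in Tw2+, with a median log2 fold change of -2.23 against 0.0019 for all genes. Of these, 4 were called lower (Egfl7, Ecscr, Emcn and Cdh5), against 10.8% of all genes. Without Tw2+ 3, 13 were called lower, against 21.4% of all genes. These 4 calls held only without Tw2+ 3 or without the unnumbered Tw2- library among the fits with 1 library omitted, with adjusted p up to 0.160. The summed level of the 14 markers ran from 240 to 732 CPM in Tw2+ and from 608 to 1888 CPM in Tw2-, and none was at 0. Much of the Tw2+ sum came from Tek, with means of 180 ± 38.3 CPM in Tw2+ and 221 ± 22.6 CPM in Tw2-. Tek differed little and was not called (log2 -0.30, edgeR adjusted p = 0.335), so the sums understate the fall of the other markers. Lymphatic markers were called lower for 3 of 5 tested (Lyve1, Mmrn1 and Reln), and Pdpn, which fibroblasts also express, was called higher. Lyve1 was at -3.97 on the log2 scale, beside medians of -2.23 for the vascular endothelial and -4.34 for the macrophage and monocyte markers. Which cells carried these transcripts was not tested. Lyve1 and Mmrn1 passed whichever library was omitted. Reln did not pass without the unnumbered Tw2+ library (0.0575), Tw2- 2 (0.0546) or Tw2+ 2 (0.0640), nor Pdpn without Tw2- 3 (0.0756) or Tw2+ 2 (0.0501). Prox1, the defining lymphatic factor, stood at 4.96 ± 1.67 and 4.99 ± 2.14 CPM, and Ccl21a had 0 counts in every library.

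Set against the endothelial markers of the same library, the receptor differences were smaller, and none passed a test. This value is the log2 CPM of a receptor minus the mean log2 CPM of the 14 markers. For Flt1 it was 1.37, 1.26 and 1.55 in Tw2+ libraries 2, 3 and unnumbered and 1.35, 1.11 and 1.27 in Tw2-, a difference of 0.15 (exact permutation test, two-sided p = 0.3). For Kdr it was 1.27, 1.43 and 1.06 in Tw2+ and 1.82, 1.96 and 1.55 in Tw2-. All Tw2+ values of Kdr were below all Tw2- values, by 0.52 on average, with an exact permutation p of 0.1, the smallest that 3 against 3 libraries can give. The Benjamini-Hochberg adjusted value over the 14 within-library tests was 0.28. Relative to Pecam1, Cdh5 and Tie1 only, the difference was -0.25 for Kdr, 0.42 for Flt1 and 0.70 for Flt4. Omitting a library moved the Flt1 difference between 0.07 (without the unnumbered Tw2+ library) and 0.22 (without Tw2+ 3).

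The ratio of Kdr to Flt1 needs no marker list. It uses the same Kdr values as the comparison with the markers, so it is not separate support for that difference. The log2 ratio was -0.10, 0.17 and -0.49 in Tw2+ libraries 2, 3 and unnumbered and 0.46, 0.85 and 0.28 in Tw2-. The groups did not overlap, and the difference was -0.67 (exact permutation p = 0.1, adjusted 0.28). Flt4 relative to the markers differed by 0.43 (p = 0.3 by the exact permutation test), Nrp1 by 1.47 (p = 0.2) and Nrp2 by 1.14 (p = 0.3). For each of these 3 genes the groups overlapped. With a smallest possible p of 0.1, the test cannot show whether these differences exceed the spread of the libraries. Without the unnumbered Tw2+ library these differences were 0.15, 1.10 and 0.65, and without Tw2+ 3 they were 0.75, 1.96 and 1.79. Nrp1 stood 4.12 log2 units above the marker mean in Tw2+ and 2.66 above it in Tw2-. The log2 ratio of Nrp1 to Nrp2 averaged 2.35 in Tw2+ and 2.02 in Tw2- (exact permutation p = 0.6).

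**Figure D3:**
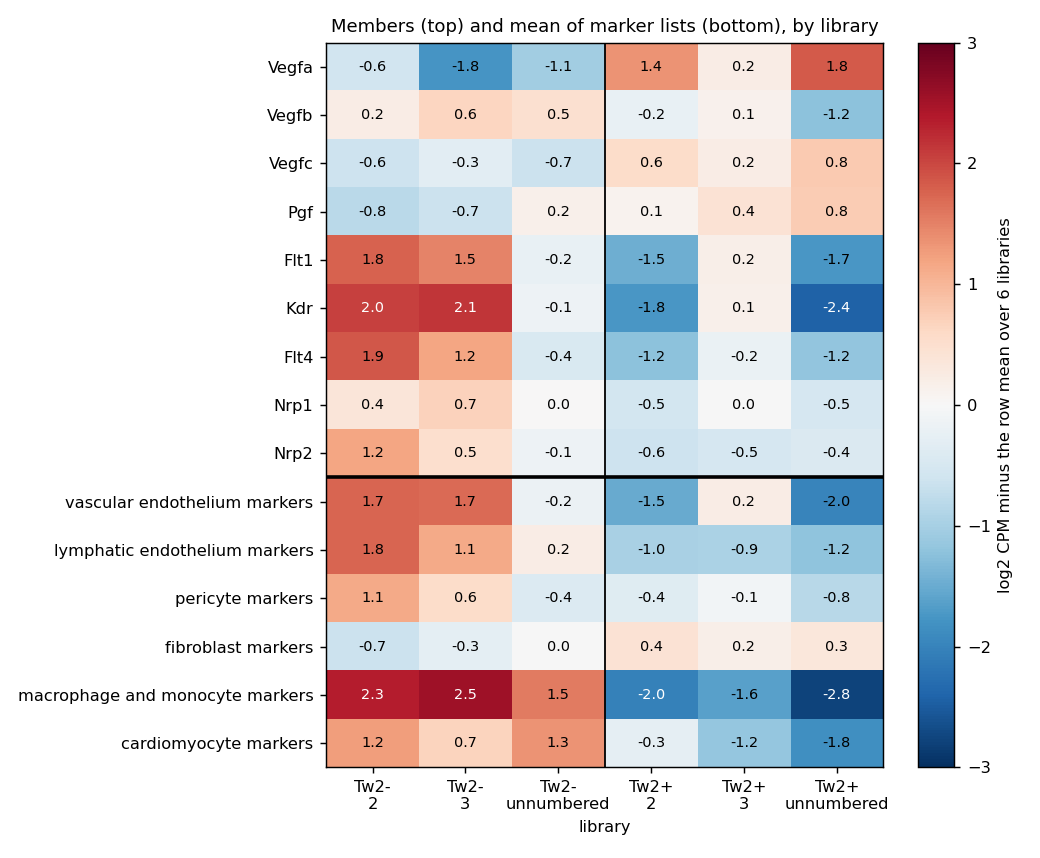
Log2 CPM of each member (top) and mean log2 CPM of the tested genes of 6 marker lists (bottom), each minus its mean over the 6 libraries, by library (columns). Flt1, Kdr and Flt4 follow the vascular endothelial markers, high in Tw2- 2 and Tw2- 3 and near their mean in Tw2+ 3 and the unnumbered Tw2- library, whereas Vegfa is highest in the unnumbered Tw2+ library (1.83) and in Tw2+ 2 (1.35).

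The ligands were compared in the same way with fibroblast markers, since these summed to between 61925 and 74380 CPM in Tw2+ and between 37782 and 56092 CPM in Tw2-. Gsn gave the largest part of these sums, with means of 40174 CPM in Tw2+ and 28186 CPM in Tw2-, and was not called (edgeR adjusted p = 0.315). Of 12 fibroblast markers 11 were fitted above 0 (median log2 fold change 0.57). Called higher were 2, Mfap5 and Tcf21, against 7.41% of all genes. Mfap5 did not pass without Tw2- 2 (0.0589) or Tw2- 3 (0.0743), and Tcf21 passed only without Tw2+ 3 (0.00367) or the unnumbered Tw2- library (0.0272). Vegfa minus the fibroblast mean was -0.6021, -1.477 and -0.0267 log2 units in Tw2+ libraries 2, 3 and unnumbered and -1.448, -2.995 and -2.550 in Tw2-. Tw2+ 3 lay just under Tw2- 2, so the groups overlapped by a narrow margin, and the difference was 1.63 (exact permutation p = 0.2, adjusted 0.311). In the edgeR fit scaled to the fibroblast markers Vegfa was still called higher (log2 1.59, adjusted p = 0.0324). Vegfc differed by 0.41 and Vegfb by -1.53 relative to these markers, each without overlap (exact permutation p = 0.1, adjusted 0.28), and Pgf by 0.23 (p = 0.4). For Vegfc the separation was very narrow, from a lowest Tw2+ value of -5.621 to a highest Tw2- value of -5.633, and the difference was 0.20 without the unnumbered Tw2- library. The part of cell composition in the ligand differences was not tested.

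Other cell types that can make or bind VEGF were also unequal between the groups. All 10 macrophage and monocyte markers were called lower, with summed levels from 116 to 275 CPM in Tw2+ and from 2310 to 5022 CPM in Tw2-. Myeloid cells are known to carry Flt1, Nrp1 and Nrp2. All 10 cardiomyocyte markers were called lower, 6 of them whichever library was omitted and Ttn in only 2 of 6 such fits, and cardiomyocytes are known to make Vegfa and Vegfb. Of 8 pericyte markers Pdgfrb was called higher and Des and Mcam lower, against 7.41% and 10.8% of all genes. Of the 8 markers 7 were fitted below 0, and the median log2 fold change was -1.17. Pdgfrb was at 0.84, beside a fibroblast marker median of 0.57, and Mcam at -2.30, beside a vascular endothelial marker median of -2.23. Which cells carried these transcripts was not tested. To the summed level of the 8 markers, Pdgfrb gave means of 459 CPM in Tw2+ and 255 CPM in Tw2-. The sums overlapped, at 560 to 680 CPM in Tw2+ and 428 to 798 CPM in Tw2-. Pdgfrb passed only without Tw2+ 3, Mcam only without Tw2+ 3 or the unnumbered Tw2- library, and Des in 3 of the 6 fits that omit a library, with adjusted p up to 0.153, 0.149 and 0.0658. The part of these cells in the members' differences was not tested.

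Levels of different genes were compared per kilobase of exonic length, from GENCODE M21. On this scale Vegfa was the most abundant ligand on average in both groups, at 302 ± 149 CPM per kb in Tw2+ and 59.7 ± 23.2 CPM per kb in Tw2- (SD, n = 3). Pgf came next at 66.1 ± 15.1 and 37.1 ± 14.4 CPM per kb, followed by Vegfc at 17.8 ± 3.40 and 8.48 ± 1.15 CPM per kb. Vegfb was last at 3.36 ± 1.47 and 5.90 ± 0.868 CPM per kb. In Tw2- the ranges of Vegfa and Pgf overlapped, while the other neighbours in this order did not overlap in either group. Vegfa made up 63.2% to 81.3% of the 4 ligands' summed CPM per kb in Tw2+ and 43.6% to 67.4% in Tw2-. Vegfb made up 0.321% to 2.04% in Tw2+ and 4.07% to 8.07% in Tw2-, with no overlap.

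Among the receptors Kdr led on average per length in both groups, at 4.37 ± 4.15 CPM per kb in Tw2+ and 26.1 ± 16.1 CPM per kb in Tw2-. Flt1 stood at 2.87 ± 2.21 and 11.4 ± 6.51, and Flt4 at 0.653 ± 0.298 and 2.56 ± 1.69 CPM per kb. Within each library, Kdr held 44.2% to 58.7% of the receptor sum in Tw2+ and 60.2% to 69.2% in Tw2-, and Flt1 held 34.9% to 41.6% and 25.8% to 33.1%. Neither share overlapped between the groups. Per length, Kdr exceeded Flt1, and Flt1 exceeded Flt4, in every library. Over libraries the Kdr and Flt1 ranges overlapped in both groups and those of Flt1 and Flt4 in Tw2-. In CPM, Flt1 was above Kdr in Tw2+ 2 (23.6 against 22.0) and in the unnumbered Tw2+ library (19.4 against 13.8). The order of Kdr and Flt1 in these libraries thus depends on the exonic lengths used, 9.03 kb for Kdr and 13.5 kb for Flt1. Nrp1 stood at 22.3 ± 4.77 CPM per kb in Tw2+ and 36.5 ± 8.49 in Tw2-, above Kdr on average, and Nrp2 at 3.55 ± 0.236 and 7.81 ± 3.56. Nrp1 exceeded Nrp2 per length in every library, at 84.0% to 88.6% of their sum in Tw2+ and 75.5% to 86.3% in Tw2-.

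**Figure D4:**
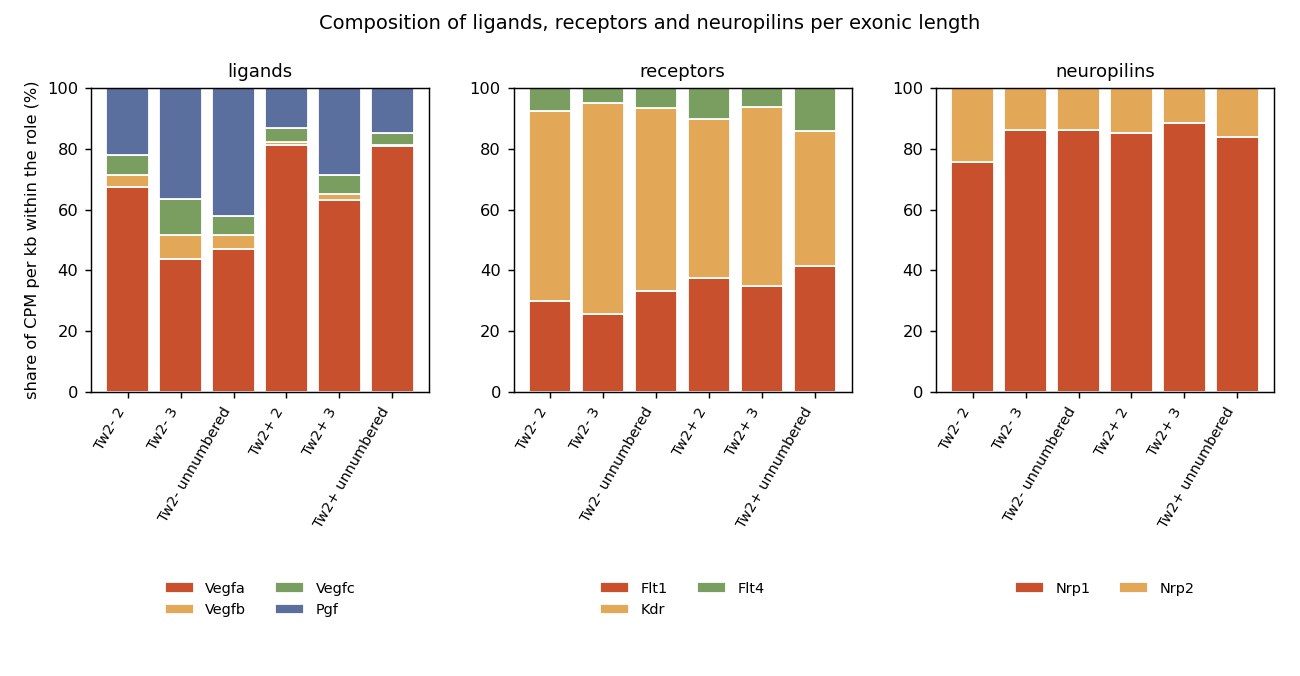
Share (vertical axis, %) of each gene in the summed CPM per kb of the ligands, the kinase receptors and the neuropilins, in each library (horizontal axis). Vegfa holds 81.3% and 80.9% of the ligands in Tw2+ 2 and the unnumbered Tw2+ library, and the Kdr share of the receptors is lowest, at 44.2%, in the latter.

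Genes with the most similar profile over the 6 libraries were found by the root mean square difference of centred log2 CPM, among 8682 other genes averaging at least 10 CPM. Nearest to Kdr were Cd93 (0.0614) and Cdh5 (0.0826), and nearest to Flt1 were Dysf (0.0622) and Kank3 (0.0956). Nearest to Flt4 were Sema7a (0.183) and Hecw2 (0.196). Vegfa was nearest to Uck2 (0.0608) and Tnfrsf12a (0.0876). Tnfrsf12a, which encodes a receptor of the TNF family, had 519, 236 and 769 CPM in Tw2+ libraries 2, 3 and unnumbered and 158, 58.1 and 98.3 CPM in Tw2-. Vegfc was nearest to Il11ra1 (0.117) and Slc7a2 (0.118), Vegfb to Crat (0.0995) and Acaa2 (0.112), and Pgf, less closely, to Lpin3 (0.164) and Slc6a9 (0.171). Nrp1 was nearest to Dram2 (0.0564) and Fdft1 (0.0805), and Nrp2 to Fnbp1l (0.134) and Cln8 (0.143). These are descriptions over 6 libraries that share the group difference, with no test.

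The rest of the VEGF pathway showed no common direction. Of 51 other genes, covering regulators of the ligands, receptor partners, signalling proteins and response genes, all were tested, 5 were called higher (9.80%) and 6 lower (11.8%). The median log2 fold change was 0.0091. Both shares were near the 7.41% and 10.8% of all genes. Without Tw2+ 3 the calls were 23.5% higher and 27.5% lower, against 20.7% and 21.4% of all genes in that fit. Without Tw2- 3 no higher call was kept and 2 genes were called lower (3.92%), against 0.609% higher and 6.10% lower over all genes.

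Upstream of the ligands, Hif1a, the oxygen-regulated subunit of hypoxia-inducible factor 1, was called higher, with a Tw2+ mean of 243 ± 68.7 CPM and a Tw2- mean of 121 ± 24.7 CPM (log2 1.00, SE 0.26, edgeR adjusted p = 0.0331). Its call held without Tw2- 2 or Tw2+ 3 and was lost in the other 4 fits that omit a library, at adjusted p from 0.0946 without the unnumbered Tw2+ library to 0.158 without Tw2- 3. Epas1, its relative in endothelial cells, was at 0.11 (adjusted p = 0.762). Figf, the symbol used in the table for the VEGF-D gene and named here because it is the remaining ligand of the family, had group means of 16.0 and 16.7 CPM (log2 -0.06, adjusted p = 0.879).

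Among receptor partners, Itgav, the integrin alpha V subunit, was called higher (log2 1.54, SE 0.33, edgeR adjusted p = 0.0165). When Tw2- 3, the unnumbered Tw2- library or Tw2+ 2 was omitted, its adjusted p was 0.0874, 0.0585 and 0.0562. Plxnd1, a semaphorin receptor of endothelium, was called lower (-1.48, SE 0.38, adjusted p = 0.0325), as was Cdh5, the VE-cadherin of endothelial junctions (-2.44, SE 0.73, adjusted p = 0.0497). Like Kdr, both passed in 2 of the 6 fits that omit a library, those lacking Tw2+ 3 or the unnumbered Tw2- library. In the other 4 fits the adjusted p ran from 0.0909 to 0.117 for Plxnd1 and from 0.124 to 0.160 for Cdh5.

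Of 24 signalling genes 2 were called higher and 2 lower, near the 7.41% and 10.8% of all genes. The counts thus set the list apart in neither direction. Prkcb, a protein kinase C isoform that is also abundant in leukocytes, fell from 48.1 ± 18.3 to 1.94 ± 0.645 CPM (log2 -4.62, SE 0.41, edgeR adjusted p = 0.000206). The adaptor Sh2d2a, also known from T cells, fell by 3.66 (SE 0.77, adjusted p = 0.0149), and both passed whichever library was omitted. The B and T cell markers that could be tested, 5 of 7, were all called lower. Shb, an adaptor of VEGFR2, and Map2k1, the kinase MEK1, were called higher at 1.13 and 1.26 (adjusted p = 0.0220 and 0.0355). Both were picked out once their values were known. Shb passed in 2 and Map2k1 in 1 of the 6 fits that omit a library, Map2k1 at 0.00082 without Tw2+ 3 and at up to 0.150 otherwise, and Shb at up to 0.115 without Tw2- 3.

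Of 11 genes known to respond to VEGF in endothelial cells, F3, which encodes tissue factor, was called higher. Its Tw2+ mean was 205 ± 77.2 CPM and its Tw2- mean 66.2 ± 13.6 CPM (log2 1.63, SE 0.31, edgeR adjusted p = 0.00889), and among the fits with a library omitted missed the threshold only without Tw2- 3 (adjusted p = 0.0531). Hlx, a homeobox factor, was called lower (log2 -0.74, adjusted p = 0.0426), as was Angpt2, the angiopoietin of activated endothelium (-1.69, adjusted p = 0.0443). Angpt2, Dll4, Rcan1 and Egr3 are named after their values were seen. Hlx passed only without Tw2+ 3 and Angpt2 only without Tw2+ 3 or the unnumbered Tw2- library, with adjusted p of up to 0.163 and 0.127 in the other fits. Dll4, the Notch ligand of tip cells, averaged 12.1 and 48.7 CPM in Tw2+ and Tw2- (adjusted p = 0.0710), and did not pass. Rcan1 and Egr3 were fitted higher (log2 0.97 and 0.62, edgeR adjusted p = 0.0579 and 0.0547) and did not pass either. Adamts1 (Tw2+ and Tw2- means of 2308 and 1541 CPM) and Nr4a1 (2397 and 2823 CPM) had the highest CPM of the list and were not called. Of the 11 genes 5 were fitted above 0 and 6 below.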

How the data were processed

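Bulk RNA-seq of sorted Tw2+ and Tw2- non-cardiomyocytes (3 libraries each) was analysed from the raw counts that the authors deposited, whole numbers for each gene symbol in each library. Per the submitters' processing notes, the tools named are TopHat2 2.0.0 and DESeq2 1.6.3, and the builds listed are GRCm38 and mm10, with no role given for any. Counter, annotation and strand setting: not given in the sources used here. Column names gave 4 libraries a group and number and 2 a group only, and 0 columns were left unused. The single-cell data that the design text mentions were not analysed here.

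Genes were filtered with filterByExpr (minimum count 10), scaled by TMM and fitted with edgeR 4.0.16 (glmQLFit, glmQLFTest) in R 4.3.3 on all 6 libraries. P-values were adjusted over all 13180 genes, and the biological coefficient of variation was 27.6%. SE is the log2 fold change divided by the root of the quasi-likelihood F. P-values rest on the spread among libraries, which the design text calls biological replicates. Libraries of a group differed beyond sampling noise (lowest chi-square over its degrees of freedom 27.1). A floor of 3 counts was 0.161 to 0.302 CPM, for counting error only, and the lowest member count was 28. Log2 CPM used a prior count of 2. Within-library differences were tested by exact permutation, where the smallest p is 0.1.

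Alternatives were DESeq2 1.42.0, limma 3.58.1 (voom), other scalings, filters and thresholds, robust dispersion, a replicate block and each library left out. On 13180 genes simulated after this comparison, edgeR recovered 86 of 100 genes changed by 1.5 and 100 of 100 changed by 3 on the log2 scale. It also called 11 unchanged genes. Every simulated gene had the same dispersion, and changed genes were not drawn from the lowest levels. The recovery therefore does not describe genes that vary more between libraries, such as the kinase receptors.

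The 9 members and the lists (6 pathway, 11 marker) were chosen with earlier results of these data known. Named genes were all members and, per list, the 2 with the smallest adjusted p and the 2 with the highest level, of which those bearing on the members are printed. Exceptions are marked in the text, except that markers called in a list are named to spell out its count, and Prox1, Ccl21a and Eno1 are named for their level or for having no counts. Positions and exonic lengths came from GENCODE M21 on GRCm38, which held 94.5% of the symbols. No member shared exonic bases with a gene on the opposite strand, and Nrp1 shared 0.818% with a microRNA on its own strand. Promoter windows were matched by symbol for all 9 members.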

Additional observations from a re-analysis of the deposited data

How the results depend on the processing

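Vegfa kept its call under 12 of 12 alternative settings of the test, scaling, filter, threshold or pairing (log2 1.59 to 4.73), and whichever library was omitted. The other members changed calls with the setting. Against 2 members higher and 3 lower, 1 was higher with scaling to the fibroblast markers or at an adjusted p under 0.01, and 0 with the 4 numbered libraries and no block, where Vegfa had an adjusted p of 0.0530. Lower were 5 in DESeq2, 1 in limma-voom, 1 with RLE factors, 6 with scaling to the fibroblast markers, 0 with scaling to the endothelial markers, 0 at an adjusted p under 0.01, and 6 with Tw2+ 3 and the unnumbered Tw2- library both omitted. With 1 library left out the ranges were 1 to 3 higher and 0 to 6 lower.

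Scaling by library size moved the median of all genes by -0.28, to the fibroblast markers by -0.65 and to the endothelial markers by 2.10. On the last scale Vegfb (1.05), Flt1 (0.14), Flt4 (0.44), Nrp1 (1.46) and Nrp2 (1.32) were above 0, none past the threshold and all below that median. Against 976 genes higher and 1419 lower, 404 were higher with library size only and 1541 in DESeq2. There were 111 higher and 3854 lower with the fibroblast markers, 1747 and 141 with the endothelial markers, 90 and 701 at an adjusted p under 0.01, and 2565 and 3068 without both libraries. With 1 library left out they were 81 to 2801 higher and 811 to 2906 lower. The 4 numbered libraries without a block gave 115 higher.

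The replicate number as a block could be fitted on the 4 numbered libraries only, leaving 1 residual degree of freedom. It called 5 members lower, 3 higher, and 2203 genes lower. Deviations from the group means correlated at 0.201 (number 2) and 0.561 (number 3) between the groups. No label says that a number marks a shared animal or day, and 2 numbers are too few to show pairing. The log2 ratio of Nrp1 to Nrp2 differed by -0.0070 without Tw2- 2 and by up to 0.51 in the other fits. The other 13 within-library differences kept their sign under each alternative. The cause of these changes was not tested.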

Other observations

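Of 17 genes induced by hypoxia, among which Vegfa is usually counted, 15 were tested, and their median was 0.24 on the log2 scale. The test called 1 higher and 2 lower, near the 7.41% and 10.8% of all genes, so the counts set the list apart in neither direction. The glucose transporter Slc2a1 was called higher (means of 462 and 151 CPM, edgeR adjusted p = 0.0350, log2 1.61), and was picked out once its value was known. With a library omitted it passed in 1 of 6 fits, that lacking Tw2+ 3 (adjusted p = 0.00302, and up to 0.136 otherwise). The bifunctional enzymes of fructose 2,6-bisphosphate fell, Pfkfb3 from a Tw2- mean of 204 CPM to 46.3 CPM (edgeR adjusted p = 0.00482, log2 -2.14) and Pfkfb4 from 24.1 to 10.6 CPM (adjusted p = 0.0154, log2 -1.18). Pfkfb3 passed in all 6 fits, and Pfkfb4 in 4, with adjusted p of 0.0739 when Tw2- 3 and 0.0553 when the unnumbered Tw2+ library was omitted. The glycolytic gene Eno1 had 0 counts in all 6 libraries of this table, so its symbol gives no measurement here.

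The semaphorin ligands and plexin partners of the neuropilins showed a single call. Of 12 class 3 semaphorin and plexin genes 10 were tested and 1, Plxnd1, was called, lower in Tw2+. This is near the 10.8% of all genes called lower, and Plxnd1 is the gene already counted among the receptor partners. Sema3c, the most abundant semaphorin of the list, had a Tw2+ mean of 152 ± 25.2 CPM and a Tw2- mean of 114 ± 50.4 CPM (edgeR adjusted p = 0.335, log2 0.42). Plxna4, a partner of Nrp1, was at -1.39 (SE 0.45, adjusted p = 0.0627).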
